A study of Mus musculus with 25 samples.

Results

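The 36 genes described here encode the contractile filaments, the Z-disc, the calcium stores, and the energy metabolism of skeletal muscle, and they are 36 of the 50559 genes counted in mRNA bound to cholinergic neuron ribosomes. They were listed by name, not by a threshold. They were chosen by measured values in part: 7 (*Atp2a1*, *Ttn*, *Mylpf*, *Myoz1*, *Tpm2*, *Pgam2*, and *Asb2*) had been labelled by the study for their difference between *ChAT-BKO* and control neurons at ZT20, and the others were added as their partners with the results at ZT20 known. Values at ZT20 are therefore a description, and the comparison at ZT8 is the one that the choice did not use. All 36 genes had the 10 counts over the immunoprecipitates (IP) that were required for a test, as 21738 genes did, but 5 of the 36 had fewer than 100 counts in all.

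Ribosomes were isolated through their hemagglutinin (HA) tag from spinal cords of male C57BL/6J mice aged 6 mo. Controls had the genotype *ChAT-Cre;RiboTag fx/+*, to which *ChAT-BKO* animals added *Bmal1 fx/fx*, so that both carry the Cre driver and the tagged ribosomal protein and differ in the floxed *Bmal1* alleles. Cre is driven from the gene of choline acetyltransferase, which limits the tag and the deletion to cells with a history of that gene's expression. Tissue was taken at ZT8, in the light period, and at ZT20, in the dark period (ZT, Zeitgeber Time, hours after lights on), with 6 libraries, labelled as biological replicates, in each of the 4 conditions. A single input library of whole spinal cord RNA, pooled from both genotypes, had no replicate. Total counts ran from 4.04 to 31.7 M per library, and 3 counts, the limit that a count of 0 allows, correspond to 0.0947 to 0.743 CPM (counts scaled to a library total of 1 M) for counting error alone. All 7 cholinergic neuron markers were above input in the IP, with a median log2 ratio of 2.36, and their summed level lay between 4228 and 4879 CPM in all 24 libraries.

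Skeletal muscle contracts when thick filaments of myosin pull on thin filaments of actin between Z-discs. Calcium released from the sarcoplasmic reticulum through the ryanodine receptor binds troponin C on the thin filament, and the pump SERCA1 returns it. Fast and slow fibers use different genes for the same part: troponin C, I, and T are encoded by *Tnnc2*, *Tnni2*, and *Tnnt3* in fast fibers and by *Tnnc1*, *Tnni1*, and *Tnnt1* in slow fibers, and myosin heavy chains by *Myh1*, *Myh2*, and *Myh4* or by *Myh7*. Adult muscle fibers lie outside the spinal cord and are contacted there by the axons of the cholinergic motor neurons. Of the 36 genes, 15 are known for fast fibers, 4 for slow fibers, and 17 for both or neither.

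Sequence before the transcription start (RefSeq, GRCm38.p6) was available for 27 of the 36 genes in 33 windows. The 250 bases before the start of 4 genes are shown because 3 of them, *Acta1*, *Ckm*, and *Mylpf*, moved together across libraries while *Myh7* did not, a choice made after their values were seen. Capitals mark CAGCTG, a form of the E-box that the myogenic regulators bind, read 5′ to 3′ on the strand of the gene.
Acta1 (chr8:123894776-123895025, minus strand): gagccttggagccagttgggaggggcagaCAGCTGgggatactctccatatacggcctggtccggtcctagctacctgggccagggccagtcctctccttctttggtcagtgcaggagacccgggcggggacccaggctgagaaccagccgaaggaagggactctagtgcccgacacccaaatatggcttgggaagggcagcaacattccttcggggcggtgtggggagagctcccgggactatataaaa
Ckm (chr7:19410844-19411093, plus strand): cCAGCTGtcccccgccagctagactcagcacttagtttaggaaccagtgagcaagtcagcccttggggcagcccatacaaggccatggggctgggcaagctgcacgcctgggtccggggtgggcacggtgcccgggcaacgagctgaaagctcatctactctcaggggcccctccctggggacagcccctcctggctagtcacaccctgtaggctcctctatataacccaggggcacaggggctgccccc
Mylpf (chr7:127211358-127211607, plus strand): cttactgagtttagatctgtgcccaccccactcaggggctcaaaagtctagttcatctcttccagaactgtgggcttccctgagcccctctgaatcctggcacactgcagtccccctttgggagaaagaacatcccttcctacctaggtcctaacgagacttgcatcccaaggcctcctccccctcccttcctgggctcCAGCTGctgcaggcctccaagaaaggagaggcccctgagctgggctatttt
Myh7 (chr14:54994627-54994876, minus strand): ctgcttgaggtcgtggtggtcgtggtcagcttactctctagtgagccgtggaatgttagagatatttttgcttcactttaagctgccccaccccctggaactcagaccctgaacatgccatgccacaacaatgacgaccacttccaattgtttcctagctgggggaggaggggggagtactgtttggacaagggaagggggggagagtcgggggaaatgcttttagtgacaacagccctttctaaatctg
CAGCTG, which reads the same on both strands, was in 45.5% of the windows of these genes and in 13% of all 32851 windows, and it lay 215, 243, and 45 bases before the start of *Acta1*, *Ckm*, and *Mylpf*. The *Myh7* window had 0 matches. Of the 27 genes, 13 had the motif. Of these 13, 11 had an r over 0.7 to the mean of the other 35 genes, as did 25 of all 36 genes. The division was not complete: *Tnni1*, with an r of -0.04, had the motif, and the variable genes *Tnnc2*, *Ttn*, and *Myh1* did not. Whether the motif goes with the pattern across libraries was not tested. The CArG box, the motif of serum response factor, was found in 15.2% of their windows against 1.47% of all, and the MEF2 site in 12.1% against 2.92%. The wider E-box CANNTG, which includes CAGCTG and CACGTG, was in 78.8% against 66.2%. CACGTG, the E-box form of the BMAL1 and CLOCK complex, was in 6.06% of their windows and in 6.02% of all. Its 2 carriers were *Actn2* and *Asb2*, and the window of *Asb2*, a gene labelled by the study, is shown with CACGTG in capitals.
Asb2 (chr12:103356002-103356251, minus strand): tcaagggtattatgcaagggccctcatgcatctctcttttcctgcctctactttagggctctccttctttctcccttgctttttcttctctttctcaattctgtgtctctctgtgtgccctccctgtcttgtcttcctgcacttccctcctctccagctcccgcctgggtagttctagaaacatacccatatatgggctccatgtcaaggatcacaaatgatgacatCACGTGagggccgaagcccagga
These matches describe letters in a window and not bound sites.

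Most of the 36 genes rose and fell together from library to library, and a small group did not follow them. After the mean of each condition was removed, 25 of the 36 genes had a Pearson r over 0.7 with the mean of the other 35 across the 24 IP libraries, and these included all 15 fast fiber genes (the lowest at 0.70). In contrast, 7 genes had an r between -0.18 and 0.19, namely *Tnnc1*, *Ldb3*, *Tnni1*, *Asb2*, *Actn2*, *Myh7*, and *Smpx*. A low r is not a flat level, since *Tnnc1* ran from 0.132 to 1.22 CPM and *Tnni1* from 1.16 to 4.16 CPM. The limits of 0.7 and 0.2 behind this division were set after the values were seen. These correlations share the depth of each library and are given as descriptions, and *Smpx* had only 96 counts over the 24 libraries.

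**Figure D1:**
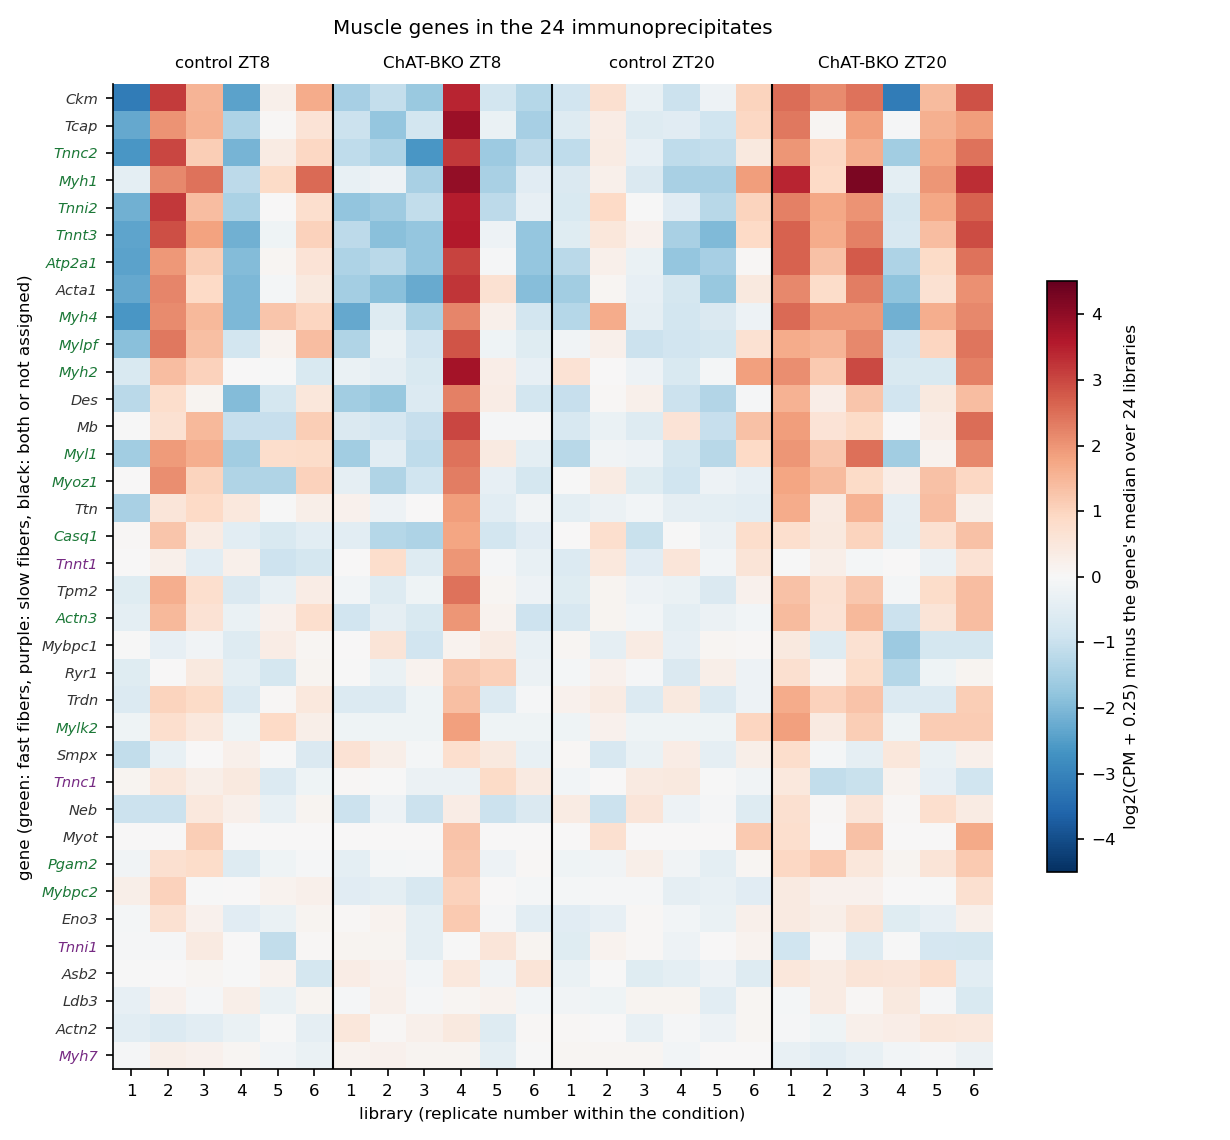
Level of each of the 36 genes (rows, widest range first) in the 24 IP libraries (columns, by condition and replicate number), as log2 CPM relative to the median of the gene over all libraries (red, higher; blue, lower). *ChAT-BKO* replicate 4 at ZT8 was the highest library for 22 of the 36 genes, and the lowest rows, such as *Myh7* and *Actn2*, vary least.

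*Acta1*, which encodes skeletal muscle alpha-actin (chr8:123891769-123894751 of GRCm38, minus strand), spanned 59.3-fold over the 24 libraries. At ZT8 its lowest, median, and highest levels were 0.775, 5.57, and 22.6 CPM in controls, and *ChAT-BKO* neurons had 0.784, 1.31, and 45.9 CPM, where the next highest library stood at 7.83 CPM. At ZT20 they were 1.30, 3.14, and 6.54 CPM in controls, and *ChAT-BKO* neurons had 1.19, 14.5, and 24.3 CPM, of which replicate 4 was the low one and the other 5 were above all controls. The groups thus overlapped at ZT8, and at ZT20 through 1 library.

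The fast troponins and *Tpm2* shared most of these high and low libraries, with *ChAT-BKO* replicate 4 the highest of its condition at ZT8 and the lowest at ZT20, while the highest library at ZT20 was replicate 3 for *Acta1* and replicate 6 for the others. *Tnnt3*, fast troponin T (chr7:142498836-142516009), at ZT8 ran from 0.258 to 19.4 CPM in controls, against 0.449 to 30.7 CPM with *Bmal1* deleted, with medians of 3.57 and 0.719 CPM. At ZT20 it ran from 0.411 to 4.63 CPM in controls, against 1.32 to 19.8 CPM with *Bmal1* deleted, with medians of 2.12 and 10.2 CPM. *Tnnc2*, fast troponin C, at ZT8 reached 12.0 CPM in the highest control, reached 13.5 CPM in the highest *ChAT-BKO* library, and had 0 counts in 1 library of each group. *Tpm2*, beta-tropomyosin, which is also made outside skeletal muscle, kept a floor of 4.84 CPM in every library and reached 43.1 CPM in *ChAT-BKO* replicate 4 at ZT8. The r of *Acta1* was 0.93 with *Tpm2*, and that of *Tnnt3* with *Tnnc2* was 0.94. *Neb*, which encodes nebulin and was counted at 72 over the 24 libraries, was too sparse to describe by library.

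Of the slow troponins, *Tnni1* and *Tnnc1* did not share this pattern, and *Tnnt1* did in part. Their r with the mean of the other 35 genes was -0.04, -0.18, and 0.44. *Tnni1* (slow troponin I) ran from 1.16 to 4.16 CPM over all libraries, with medians of 2.77, 3.06, 2.86, and 1.67 CPM in controls and *ChAT-BKO* neurons at ZT8 and in controls and *ChAT-BKO* neurons at ZT20. *Tnnc1* (slow troponin C, also the cardiac form) had condition medians between 0.288 and 0.689 CPM. *Tnnt1* (slow troponin T) was highest in *ChAT-BKO* replicate 4 at ZT8, at 2.73 CPM, followed by 1.07 CPM in replicate 2 of the same condition. Over the 24 libraries, *Tnnc2* and *Tnnc1* had an r of -0.20, *Tnni2* and *Tnni1* of -0.06, and *Tnnt3* and *Tnnt1* of 0.36. The median r was 0.77 over the 105 pairs of fast genes, 0.13 over the 6 pairs of slow genes, and 0.02 over the 60 pairs of a fast with a slow gene.

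Per kb of exon, the fast form made up a median of 69.4% of troponin C (0 to 98.2% over the 24 libraries), 49.0% of troponin I (0 to 91.6%), and 88.7% of troponin T (37.0 to 97.8%). In input these shares were 95.8%, 69.4%, and 96.6%. At ZT8 the median share of *Tnnc2* was 86.2% in controls and 41.6% in *ChAT-BKO* neurons, with both groups reaching from 0 to over 90%. The mean shares of the 3 pairs at ZT8 did not differ beyond the spread of the libraries (6 against 6, two-sided exact permutation tests, p = 0.377 for troponin C, 0.340 for troponin I, and 0.610 for troponin T, or 0.565, 0.565, and 0.610 after adjustment over these 3 tests). At ZT20 the median shares of *Tnnc2*, *Tnni2*, and *Tnnt3* were 56.2%, 38.9%, and 86.8% in controls and 95.4%, 84.8%, and 96.3% in *ChAT-BKO* neurons, a contrast that the choice of genes used.

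Among thick filament genes, *Myh4*, *Myh1*, and *Myh2* (myosin heavy chains of fast fibers), *Mylpf* and *Myl1* (fast myosin light chains), and *Mylk2* (skeletal myosin light chain kinase) followed *Acta1*. *Myh4* ran from 0.129 to 13.3 CPM, and its median was 4.74 and 1.18 CPM at ZT8 and 1.37 and 8.68 CPM at ZT20 in controls and *ChAT-BKO* neurons. *Myh1* and *Myh2* were at 0 in 4 and 6 of the 24 libraries. *Mylpf* (chr7:127208890-127214298) had medians of 2.34 and 0.807 CPM at ZT8 and of 0.791 and 4.00 CPM at ZT20, and 5 of 6 *ChAT-BKO* libraries at ZT20 were above all controls.

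*Myh7*, the slow and cardiac myosin heavy chain (chr14:54970684-54994626, minus strand), was the steadiest member, with 9.77 to 16.2 CPM over all 24 libraries, a 1.66-fold range. Its lowest, median, and highest levels at ZT8 were 11.0, 13.8, and 16.2 CPM in controls, against 10.0, 14.7, and 15.7 CPM in *ChAT-BKO* neurons, and 12.3, 14.1, and 14.6 CPM and 9.77, 11.0, and 12.9 CPM at ZT20. *ChAT-BKO* replicate 4 at ZT8, the highest library for *Acta1*, had 14.8 CPM of *Myh7*. Of 100-base windows of the longest coding *Myh7* transcript, 11.2% were shared with another myosin heavy chain gene, so a part of its reads may be divided between copies, and 9.46%, 9.17%, and 3.85% were shared for *Myh1*, *Myh2*, and *Myh4*. *Mybpc2* (fast myosin-binding protein C) combined both behaviors, with at least 2.44 CPM in every library and an r of 0.70 with *Acta1*. It was the only one of the 36 genes whose groups did not overlap at ZT20 (4.05 to 7.05 CPM in *ChAT-BKO* neurons against 2.79 to 3.99 CPM in controls). *Mybpc1* (another myosin-binding protein C) ran from 0 to 1.00 CPM, with an r of 0.37 to the mean of the other 35 genes. At ZT20, 4 of its *ChAT-BKO* libraries were below all controls and 2 were above.

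**Figure D2:**
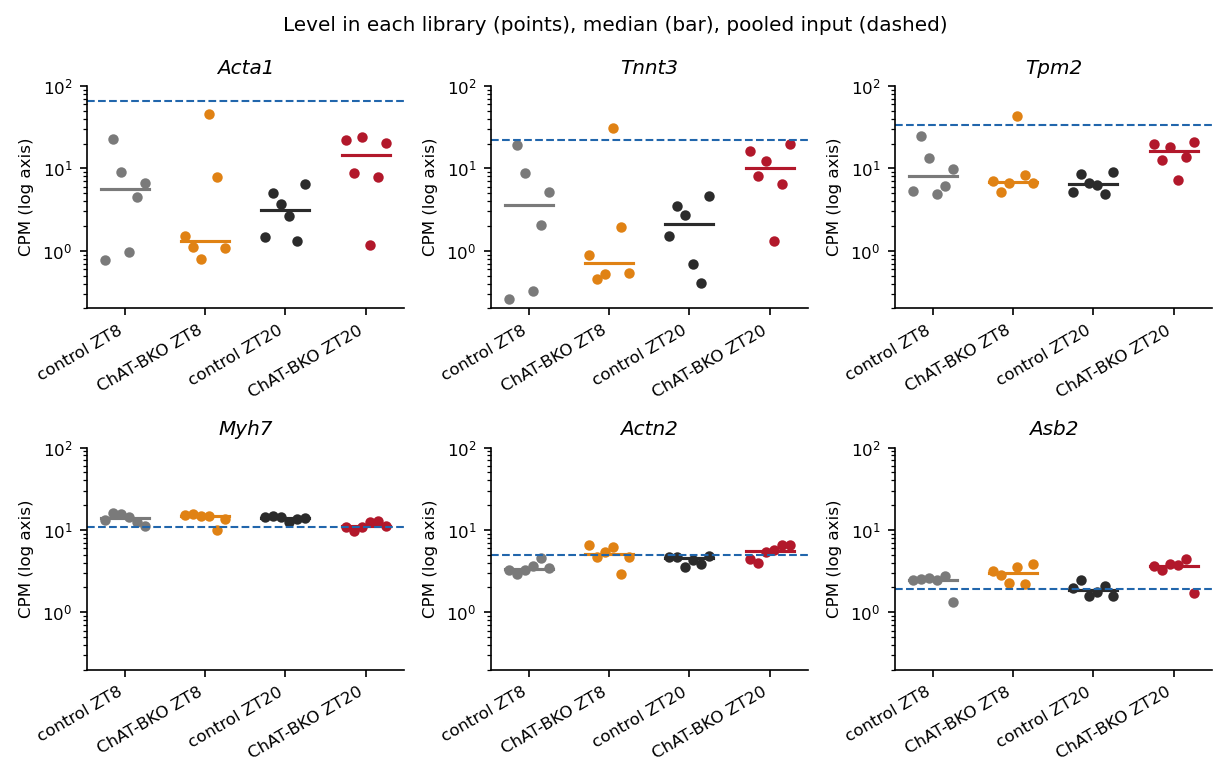
CPM (log axis) of 3 genes that varied together (top) and 3 that did not follow them (bottom) in each IP library (points, 6 per condition) with the median of each condition (bars) and the pooled input (dashed line). *Acta1*, *Tnnt3*, and *Tpm2* show 1 high *ChAT-BKO* library at ZT8 and 1 low *ChAT-BKO* library at ZT20, and *Myh7*, *Actn2*, and *Asb2* lie nearer to the input level.

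Z-disc genes divided in the same way. *Actn3* (the alpha-actinin of fast fibers) reached 16.2 CPM in *ChAT-BKO* replicate 4 at ZT8 and had medians of 5.40 and 2.63 CPM at ZT8 and 3.38 and 8.43 CPM at ZT20 in controls and *ChAT-BKO* neurons. *Tcap* (telethonin), *Myoz1* (calsarcin-2), *Des* (desmin), and *Ttn* (titin) moved with it, and *Des*, which vascular smooth muscle also makes, ran from 0.0543 to 5.47 CPM. *Actn2* (alpha-actinin-2, also found at neuronal synapses) spanned 2.27-fold and *Ldb3* (the Z-disc protein ZASP) 2.36-fold. The r of *Actn3* with *Actn2* was -0.07. *Myot* (myotilin) was at 0 in 17 of the 24 libraries.

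Of the calcium-handling genes, *Atp2a1* (SERCA1, the calcium pump of fast fibers, chr7:126445858-126463108, minus strand) had an r of 0.97 with *Acta1*, the highest of all 630 pairs. Its lowest, median, and highest levels at ZT8 were 0.129, 2.36, and 7.50 CPM in controls, against 0.349, 0.571, and 16.3 CPM in *ChAT-BKO* neurons, and 0.349, 1.02, and 2.12 CPM and 0.528, 7.71, and 13.4 CPM at ZT20. *Casq1* (calsequestrin, the calcium buffer of the store) had condition medians from 0.302 to 1.20 CPM and *Ryr1* (the release channel) from 0.566 to 0.777 CPM. *Trdn* (triadin) was at 0 in 9 libraries. *Atp2a1* and *Mylpf* are 2 of the 8 members on chromosome 7 with *Bmal1* and lie 13.2 and 14.0 Mb from it, and the part of this position in their values was not tested.

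Of the genes of energy metabolism, *Ckm* (muscle creatine kinase) had 0 counts in 1 control library at ZT8 and 1 *ChAT-BKO* library at ZT20 and reached 23.1 CPM. *Mb* (myoglobin) had condition medians between 0.128 and 0.607 CPM. *Pgam2* (muscle phosphoglycerate mutase) and *Eno3* (muscle enolase) were less variable, at 0.706 to 3.10 and 3.04 to 10.7 CPM, and still followed the others (r of 0.82 and 0.84 with the mean of the other members). *Asb2*, the substrate receptor of a ubiquitin ligase that targets filamins (chr12:103321142-103356001, minus strand), did not, with an r of -0.09 to *Acta1*. Its lowest, median, and highest levels at ZT8 were 1.33, 2.48, and 2.76 CPM in controls, against 2.20, 3.00, and 3.83 CPM in *ChAT-BKO* neurons, and 1.60, 1.85, and 2.44 CPM and 1.71, 3.68, and 4.43 CPM at ZT20. The low *ChAT-BKO* library of *Asb2* at ZT20 was replicate 6, the library with the highest summed level of the 36 genes in that condition, and not replicate 4.

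Summed over the 36 genes, controls at ZT8 had 47.6 to 211 CPM, against 50.6 to 338 CPM in *ChAT-BKO* neurons, with medians of 83.2 and 58.0 CPM. At ZT20 controls had 51.3 to 87.8 CPM and *ChAT-BKO* neurons 56.5 to 197 CPM, with medians of 60.2 and 154 CPM. *ChAT-BKO* replicate 4 at ZT8, with 338 CPM, stood apart from the other 5, none of which exceeded 70.2 CPM, and control replicate 2 held the 211 CPM. The SD of log2 CPM within conditions had a median of 0.84 over the 36 genes, 1.54 over the fast genes, and 0.47 over the slow genes, against 0.31 over all genes tested. In bulk RNA a change in the number of cells of a kind cannot be told apart from a change in RNA per cell.

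Most of the 36 genes were depleted from the IP relative to input. The median log2 ratio of IP to input was -2.80 over the 36 genes, -3.08 over the fast genes, and -0.54 over the slow genes, against -0.45 over all genes tested. For 21 of the 36 genes all 24 IP libraries were below input. *Mb* (-4.83), *Myl1* (-4.41), *Atp2a1* (-4.37), *Ckm* (-4.09), and *Acta1* (-3.73) had low ratios. The median over marker lists was -4.44 for astrocytes, -3.69 for oligodendrocytes, -3.67 for Schwann cells, and -3.01 for fibroblasts, each with 0 of 6 genes above input. It was -4.19 for microglia, -3.14 for sensory ganglion neurons, -3.03 for smooth muscle and mural cells, -2.80 for red blood cells, -2.18 for further skeletal muscle genes, -0.58 for bone and cartilage, -0.23 for cardiac muscle, -0.24 for postsynaptic muscle receptor genes, and 0 for both muscle precursor genes and adipocytes. The cardiac, postsynaptic, precursor, and adipocyte lists hold genes with 0 input counts, such as *Myl7*, *Chrnd*, *Myod1*, and *Lep*. The prior count of 2 holds such ratios near 0, so these medians do not show that the genes escaped depletion. *Asb2* (0.33), *Myh7* (0.33), and *Mybpc2* (0.06) were above input, in 19, 22, and 17 of the 24 libraries, and *Actn2* (-0.12) and *Tnnc1* (-0.19) were close to it. For *Tnnc1* this rests on 5 counts in input. Input had 3020 counts of the 36 genes, 408 CPM, and the ratios have no replicate error on that side.

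**Figure D3:**
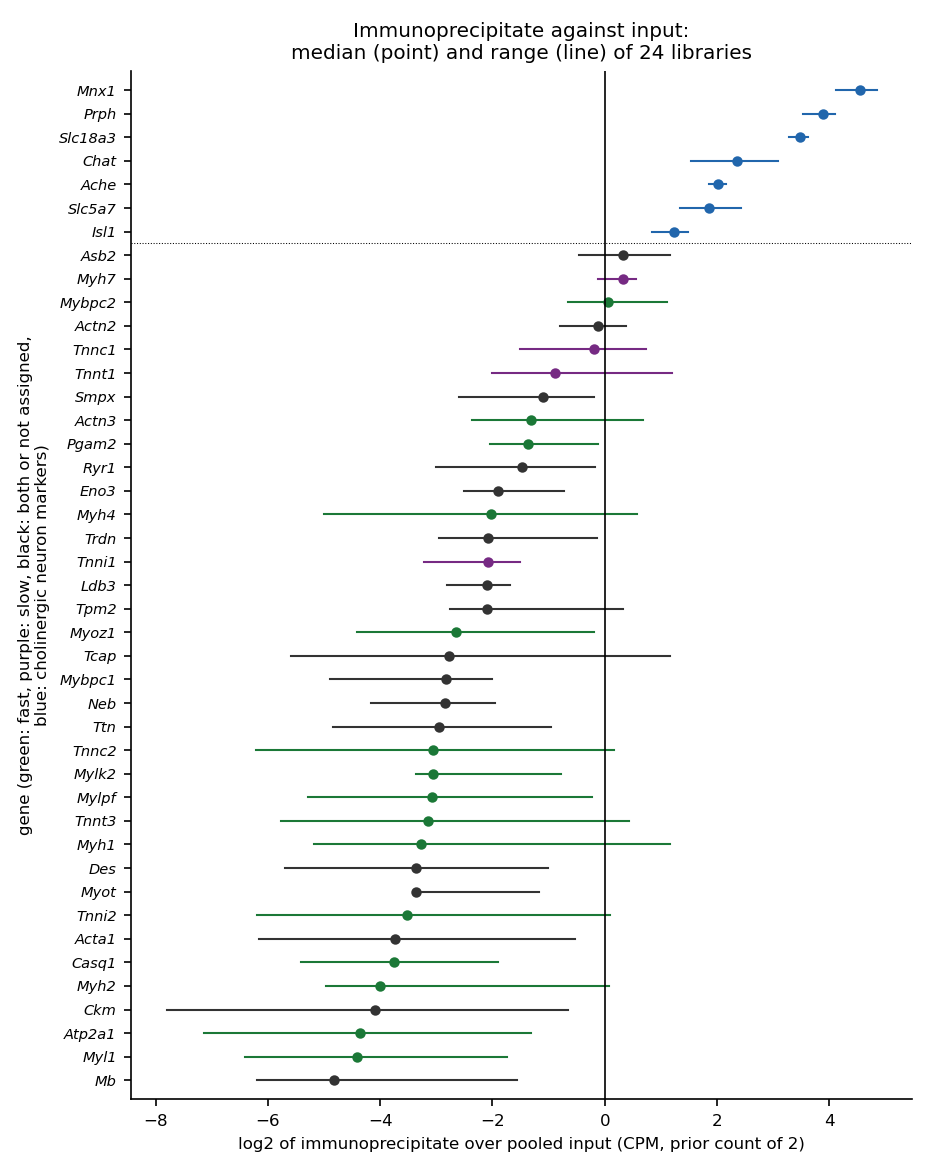
Log2 ratio of each IP library to the pooled input for the 36 genes and 7 cholinergic neuron markers (points, median of 24 libraries; lines, lowest to highest). Most muscle genes lie left of 0 with wide ranges, *Asb2*, *Myh7*, and *Mybpc2* lie just right of 0, and the cholinergic markers lie to the right of all of them.

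The order of the genes also changed between input and IP. In CPM per kb of exon, *Acta1* was first in input at 42.6, followed by *Tnnc2* at 14.7, *Tnnt3* at 14.1, *Ckm* at 12.3, and *Tpm2* at 11.6. In the median IP library *Acta1* was first at 3.11, followed by *Tpm2* at 2.68, *Eno3* at 2.62, *Tnnc2* at 1.66, and *Myh7* at 1.57, the last of which was 22nd in input, at 1.26. Within a library, Spearman's rho of the 36 levels per kb with those of input, which is across genes and not over replicates, ran from 0.22 to 0.90. It was 0.796 to 0.898 in the 8 libraries with a summed level over 100 CPM and 0.221 to 0.581 in the 10 libraries under 60 CPM. Both measures come from the same counts. Of the 8 libraries, 5 were *ChAT-BKO* neurons at ZT20, 1 was *ChAT-BKO* neurons at ZT8, and 2 were controls at ZT8.

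**Figure D4:**
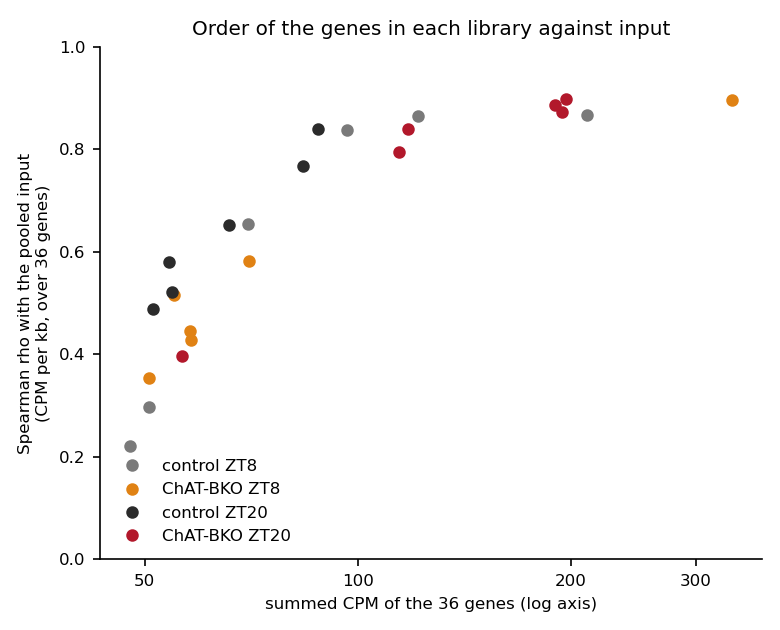
Spearman's rho of the 36 levels per kb in each IP library with those of the pooled input (vertical axis) against the summed CPM of the 36 genes (horizontal log axis), by condition. Libraries with a high sum resemble input in the order of these genes, up to 0.898, in both genotypes, and those with a low sum do so less, down to 0.221.

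Deletion of *Bmal1* was compared at ZT8 first. None of the 36 genes was differentially expressed in *ChAT-BKO* neurons at ZT8 with edgeR (0 higher and 0 lower, where 0.129% and 0.0552% of all genes tested were), nor with DESeq2 (0 of the 30 to which it gave an adjusted p) or limma voom (0). At an unadjusted p under 0.05, 1 of the 36 passed, where 4.83% of all genes did. The median SE of the 36 log2 fold changes was 0.73 (0.11 to 1.27). Differences of several times the SE could still go uncalled after adjustment over 21738 genes. The absence of calls therefore does not show equal levels. The median log2 fold change of the 36 genes was 0.14 and 22 were higher, with a median of 0.00 over all genes. It rested on *ChAT-BKO* replicate 4, without which the median was -1.59, 9 were higher, and 20 passed at an unadjusted p, still with 0 called. In that fit 1003 of all genes tested passed at an unadjusted p. Without control replicate 2 it was 0.53, and without both libraries, a pair chosen after seeing the data, -1.11. The log2 fold changes were 0.36 (SE 0.86) for *Acta1*, 0.29 (SE 0.85) for *Atp2a1*, and 0.28 (SE 0.50) for *Tpm2*, all smaller than their errors, and 0.04 (SE 0.11) for *Myh7*.

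The gene that passed unadjusted at ZT8 was *Actn2*, with 2.91, 3.32, and 4.50 CPM (lowest, median, and highest) in controls, against 2.94, 5.06, and 6.59 CPM in *ChAT-BKO* neurons, of which 5 of 6 were above all controls. Its log2 fold change was 0.61 (SE 0.17), with an adjusted p of 0.353 from edgeR and 0.115 from DESeq2, so it was not called. The exact permutation test of *Actn2* gave p = 0.0325 (6 against 6, two-sided, the lowest of 36 such tests). Groups that did not overlap were found for 0 of the 36 genes at ZT8 (0.57% of all genes), and at least 5 of 6 *ChAT-BKO* libraries above all controls for *Actn2* alone (1.21% of all genes). *Asb2* had a log2 fold change of 0.40 (SE 0.19), and 4 of its 6 values after deletion exceeded every control.

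At ZT20, the contrast on which members were chosen, *ChAT-BKO* neurons had the higher level for 32 of the 36 genes, and the log2 fold changes had a median of 1.59 (median SE 0.43). The edgeR fit called 8 of them higher (0.189% of all genes) and 0 lower (0.0414%), and 25 had an unadjusted p under 0.05 (6.28% of all genes), counts that follow from the choice. The 8 were *Atp2a1* (2.93), *Tnnt3* (2.40), *Tnnc2* (2.24), *Acta1* (2.20), *Ttn* (2.12), *Mylpf* (2.09), *Myoz1* (2.00), and *Tpm2* (1.25). All 15 fast genes were higher, with a median of 2.09, and 0 of 4 slow genes were, at -0.04 for *Tnnt1*, -0.31 for *Myh7*, -0.47 for *Tnni1*, and -0.51 for *Tnnc1*. For 15 of the 36 genes at least 5 of 6 libraries with the deletion exceeded every control (1.51% of all genes), and for 1, *Mybpc2*, all were (0.506% of all genes did not overlap). Replicate 4 was the exception for *Acta1*, *Tnnt3*, *Tpm2*, and *Atp2a1*, and replicate 6 for *Asb2*. With 1 library left out, the number called was 2 (*ChAT-BKO* replicate 1, or control replicate 3, 4, or 5), 3 (control replicate 1), 4 (*ChAT-BKO* replicate 3), 5 (*ChAT-BKO* replicate 2 or 6), 7 (*ChAT-BKO* replicate 5), 9 (replicate 2 of the controls), 12 (replicate 6 of the controls), or 17 (*ChAT-BKO* replicate 4). Those fits called 23 to 57 of all genes tested higher. Leaving out *ChAT-BKO* replicates 1 and 3 together, a pair chosen after seeing the data, gave 0 (31 of all genes) and a median of 1.04, although replicate 6, which had as high a summed level, was kept.

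**Figure D5:**
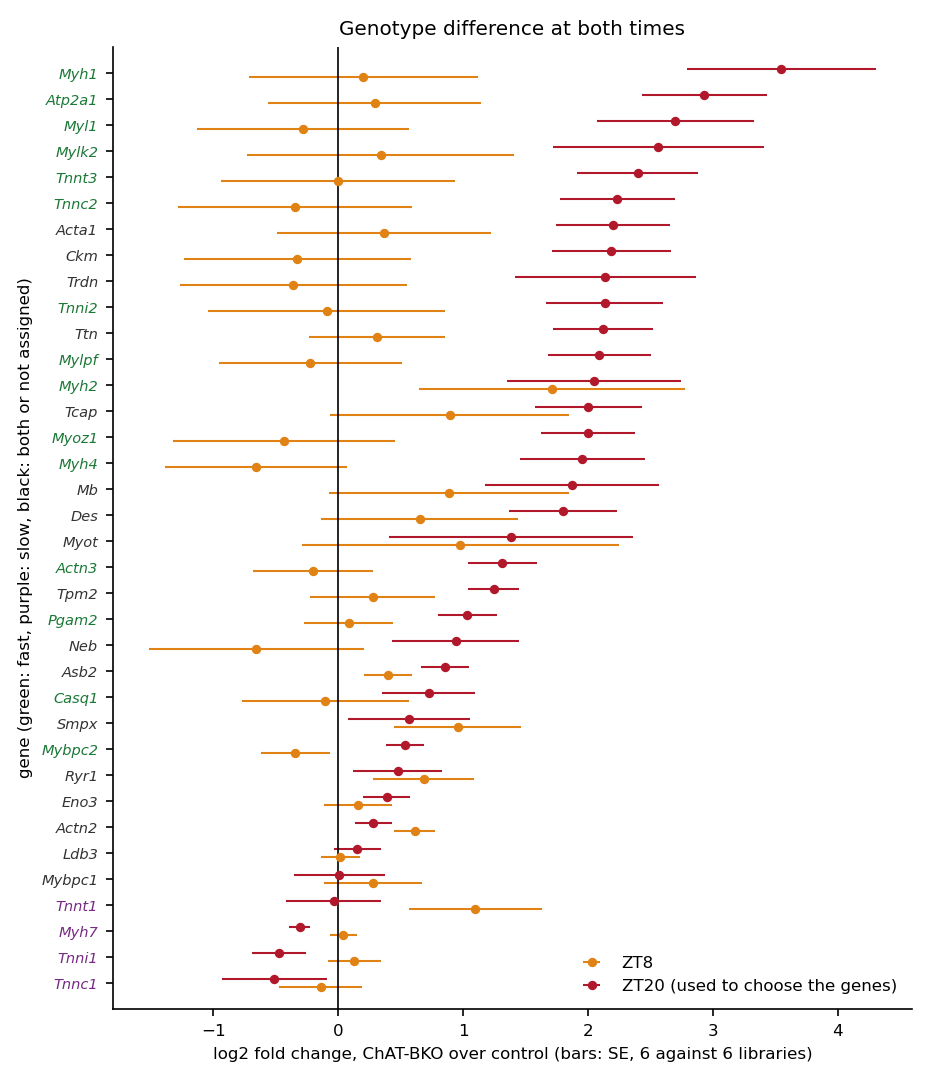
Log2 fold change (horizontal axis) of each of the 36 genes in *ChAT-BKO* over control neurons at ZT8 (orange) and ZT20 (red), with SE (bars, 6 against 6 libraries). At ZT20, which was used to choose the genes, fast genes (green names) lie to the right, up to 3.55 for *Myh1*, and the 4 slow genes (purple) lie at or left of 0, and at ZT8 the points scatter around 0 with wide errors.

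Night was compared with day within each genotype. These comparisons share their libraries at ZT20 and ZT8 with those of the genotypes. In controls 0 of the 36 genes were called (0.0966% of all genes were higher and 0.0184% lower at ZT20) with edgeR, and 15 had an unadjusted p under 0.05, where 8.25% of all genes did. The median log2 fold change was -0.66 with 27 genes lower at ZT20, and without control replicate 2 at ZT8 it was -0.23 with 2 genes at an unadjusted p under 0.05. Fast genes had a median of -1.43, and *Myh7* and *Tnni1* had -0.00 and 0.00. *Mybpc2* was the 1 gene whose groups did not overlap, at 4.10 to 8.66 CPM at ZT8 and 2.79 to 3.99 CPM at ZT20 (0.938% of all genes). For 0 of the 36 did at least 5 of 6 libraries at ZT20 exceed all at ZT8 (1.84% of all genes). This count looks upward alone, while most of the 36 genes were lower at ZT20. Downward, *Mybpc2* had all 6 libraries at ZT20 below all at ZT8, and no other member had more than 2 (*Myh1* and *Actn3*). The share of all genes in that direction was not counted. With limma voom the median was -0.07, 16 genes were higher and 3 had an unadjusted p under 0.05, and with DESeq2 4 did. Neither called any (0 and 0), and DESeq2 gave an adjusted p to only 17 of the 36.

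For 28 of the 36 genes the level in *ChAT-BKO* neurons was higher at ZT20, the log2 fold changes had a median of 0.59, and 0 were called by edgeR (0.23% of all genes were higher and 0.0552% lower), with 4 at an unadjusted p under 0.05 (9.42% of all genes) and 0 with at least 5 of 6 libraries at ZT20 above all at ZT8 (2.18%). DESeq2 called 1 gene, *Myh7*, lower, of 19 with an adjusted p, where it called 85 of all genes tested lower. Without *ChAT-BKO* replicate 4 at ZT8, 15 of the 36 were called higher and the median was 2.55, where 46 of all genes tested were called higher. All 15 fast genes were higher and 0 of 4 slow genes were, with -0.34 for *Myh7*, -0.59 for *Tnni1*, -0.51 for *Tnnc1*, and -0.80 for *Tnnt1*. The difference of the genotype effect between ZT20 and ZT8, which contains the contrast used to choose the genes, had a median of 1.05 over the 36 genes and of 2.32 over the fast genes. It was called for 0 of the 36 and for 0.0% of all genes by edgeR, with 13 of the 36 at an unadjusted p under 0.05 (3.9% of all genes), and for 0 of the 36 by DESeq2 and limma voom. Without *ChAT-BKO* replicate 4 at ZT8 its median was 2.85.

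Other muscle genes were read from a list of 32 further skeletal muscle genes. Of their IP counts, 90.9% came from 5 genes, *Pvalb*, *Pygm*, *Hspb6*, *Srl*, and *Fbxo32*, of which neurons or glia also make *Pvalb* and *Pygm*. The summed level of the 32 was 90.1 to 150 CPM in the 24 libraries, and 0 of the 32 were called in any of the 5 comparisons. Between genotypes their median log2 fold changes were 0.12 at ZT8 and 0.39 at ZT20. In *ChAT-BKO* neurons 20 were higher at ZT8 and 24 at ZT20. An unadjusted p under 0.05 was found for 4 at ZT8 and 10 at ZT20, where 4.83% and 6.28% of all genes had one. This list too was chosen with results known. With at least 10 counts per library on average, 10 could be compared across libraries, and those with an r over 0.5 with the mean of the 36 genes included *Jsrp1* (a junctional protein of the calcium store, 0.71) and *Nrap* (0.59). Of 8 genes of muscle precursors, the regulators *Myf5*, *Myf6*, *Myod1*, *Myog*, and *Pax7* had 0, 5, 6, 10, and 31 counts over the 24 libraries, and *Myh3*, *Mymk*, and *Myh8* (embryonic myosin, myomaker, and perinatal myosin) had 59, 118, and 827. Input had 0 to 7 counts of each. *Myh8* was above input in all 24 IP libraries, with a median log2 ratio of 1.70 (1.17 to 2.39) that rests on 5 counts in input. *Myh3* was above it in 0 libraries (median -1.94) and *Mymk* in 9 (median -0.14). Of 6 genes of the postsynaptic muscle membrane, *Chrnd*, *Chrng*, *Chrne*, and *Musk* had 0, 0, 3, and 8 counts, and *Chrna1* and *Chrnb1* had 49 and 160, with 0 to 6 in input.

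Outside all lists, 14111 genes had at least 10 counts per library on average, and 0 of them had an r over 0.8 with the mean of the 36 genes. The 10 highest were *Cmya5* (0.76, the muscle protein myospryn), *Abraxas2* (0.70), *Chka* (0.68), *Erbb4* (0.68), *Lime1* (0.64), *Mgme1* (0.63), *Llgl1* (0.62), *Sema3f* (0.61), *Tmco6* (0.60), and *Urgcp* (0.59). *Cmya5* had a log2 ratio of IP to input of -2.05. Markers of other cells had a median r of 0.25 for fibroblast and meninges, 0.15 for red blood cell, 0.08 for astrocyte, 0.05 for Schwann cell, -0.03 for oligodendrocyte, and -0.13 for cholinergic neuron genes. In *ChAT-BKO* replicate 4 at ZT8, first of 24 libraries in the summed level of the 36 genes, the smooth muscle and mural list (which holds *Des*), the muscle precursor list, and the further skeletal muscle genes also ranked 1. Cardiac muscle ranked 3, sensory ganglion neuron 4, adipocyte 6, cholinergic neuron 10, microglia 12, fibroblast and meninges 13, astrocyte and bone and cartilage 16, red blood cell and postsynaptic receptor genes 17, Schwann cell 21, and oligodendrocyte 22. The lists that also ranked 1 stood close to the next library. Smooth muscle and mural genes had 15.1 CPM, against 14.7 CPM in *ChAT-BKO* replicate 2 at ZT20. Of these levels, 5.47 and 1.19 CPM were *Des*, itself a member, and without *Des* the list was lower in the former library than in the latter. The rank of this list is therefore not separate from the 36 genes. Muscle precursor genes had 4.92 CPM, against 4.90 CPM in *ChAT-BKO* replicate 6 at ZT8. Further skeletal muscle genes had 150 CPM, against 148 CPM in control replicate 2 at ZT8. Adipocyte genes, of which 4 of 6 were tested, were too sparse for an r. At ZT20 all 4 had a positive genotype difference, with a median log2 fold change of 2.25, 3 at an unadjusted p under 0.05, and 0 called, and their summed level was 8.92 CPM in *ChAT-BKO* replicate 3 at ZT20 and at most 2.31 CPM in the other libraries. Their part in the difference of the 36 genes was not tested. *ChAT-BKO* replicate 4 at ZT20, ranked 17 for the 36 genes, was first for cholinergic markers, at 4879 CPM. The median r of the further skeletal muscle genes was 0.32, and that of the smooth muscle and mural list was 0.10. The highest r of the latter list, 0.90, was that of *Des*, which is itself a member and part of that mean. *Myh11*, *Tagln*, and *Rgs5* had 0.18, 0.02, and -0.004. Whether the muscle transcripts came from tissue attached to the cord or from the tagged neurons was not tested. Of the 7 genes that did not follow the others, *Ldb3* (-2.09), *Tnni1* (-2.09), and *Smpx* (-1.10) had low ratios to input. *Asb2* (0.33), *Myh7* (0.33), *Actn2* (-0.12), and *Tnnc1* (-0.19) were near or above it. Of the 25 genes with an r over 0.7, *Mybpc2* (0.06), at the limit with an r of 0.70, was near input. The others were below it, the highest being *Actn3* (-1.30). Whether the ratio of a gene goes with its pattern was not tested.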

How the data were processed

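mRNA bound to HA-tagged ribosomes of cholinergic neurons was sequenced in 24 libraries, beside 1 pooled input. Per the labels, reads were aligned to mm10 (the assembly GRCm38) with STAR 2.7.5, and the deposited values are RSEM expected counts per gene, made by the authors without normalization, of which 6.11% were not whole. Counts were rounded. Gene symbols matched GENCODE models for 74.8% of rows and for all 36 genes.

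The 21738 genes whose IP counts reached a total of 10 were tested with edgeR 4.0.16 in R 4.3.3 (TMM, quasi-likelihood F test, two-sided, Benjamini-Hochberg over all genes, adjusted p under 0.05 called). SEs were derived from the F statistic. CPM use TMM-scaled library sizes, the ratio to input uses CPM on total counts, and log2 values have a prior count of 2. Correlations are of log2 CPM after the mean of each condition was removed. Within conditions, pairs of libraries differed by 1.80 to 25.4 times the sampling noise (chi-square per degree of freedom).

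The text names all 36 genes by role, genes of 15 marker lists on which a result turns, and the 10 genes most like the mean of the 36. Members and lists were chosen with earlier results of these data known. Alternatives were DESeq2 1.42.0, its size factors in edgeR, no filter, filterByExpr, limma voom 3.58.1 with quality weights, a replicate block, all 24 libraries, a prior count of 0.5, and each library left out. Fits without pairs of libraries were added after seeing the data. The test was also run on simulated counts, with changes in well-counted genes alone and dispersions on the trend of all genes. That run does not cover sparse or unusually variable genes, as many of the 36 were. Protein sequences were not used here. The values of 1 gene of the further skeletal muscle list are not reported here.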

Additional observations from a re-analysis of the deposited data

Results flagged for a closer look

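The gap of the highest or lowest library to the next one was set against Dixon's 95% critical value for groups of 6, for 12 genes chosen after their values were seen and for the sum of the 36 genes, in each of the 4 conditions. In 14 of these 52 groups 1 library stood apart from the other 5. Many of these genes vary together, and the sum contains them, so the groups are not independent. The number of groups is therefore not compared with chance. In *ChAT-BKO* replicate 4 at ZT8 the log2 CPM was high for *Ckm* (4.54), *Tnnt3* (4.95), *Tnnc2* (3.77), *Tnni2* (3.68), and *Tpm2* (5.43), and the log2 of the summed CPM of the 36 genes was 8.4. In *ChAT-BKO* replicate 4 at ZT20 the log2 CPM was low for *Ckm* (-2.66, at 0 counts), *Tnnc2* (-1.25), *Tnni2* (-0.85), and *Myh4* (-1.25).

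The other 4 were in genes that did not follow the mean of the 36. *Myh7* stood at 3.35 in *ChAT-BKO* replicate 5 at ZT8, *Tnni1* at 0.40 in control replicate 5 at ZT8, and *Asb2* at 0.57 in control replicate 6 at ZT8 and at 0.90 in *ChAT-BKO* replicate 6 at ZT20. All 4 were below the other libraries of their condition.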

How the results depend on the processing

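At ZT20 the number of the 36 genes called higher, 8 with edgeR, was 14 with no filter on low counts, 2 with filterByExpr (which tested 22 of the 36), 2 with limma voom, 1 with all 24 libraries in the fit, and 0 without *ChAT-BKO* replicates 1 and 3, a fit added after seeing the data, and 2 to 17 with 1 library left out. Replicate 6 had as high a summed level as those 2 libraries and was kept in that fit. Of all genes tested, 41 were called higher with edgeR, 50 with no filter, 38 with filterByExpr, 35 with limma voom, and 48 with all 24 libraries. The median log2 fold change at ZT8 ran from -1.59 to 0.53 with 1 library left out and was -1.11 without control replicate 2 and *ChAT-BKO* replicate 4 (added). In *ChAT-BKO* neurons, ZT20 against ZT8, 0 to 15 genes were called higher with 1 library left out, DESeq2 called 1 (*Myh7*) lower, and the median was 1.80 with limma voom and 0.30 to 2.55 with 1 library left out. The median difference of the genotype effects was 0.68 to 2.85. Single log2 fold changes at ZT8 reversed: *Acta1* was -0.36 with limma voom, -1.24 in the added fit, and -2.16 to 1.31 with 1 library left out, *Tpm2* was -0.22 in the added fit and -0.73 to 0.80, and *Tnnt3* was -3.14 to 1.07. The cause was not tested.

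Replicate numbers did not pair the libraries: those with the same number had a median r of deviations of 0.02, 0.01, 0.03, and -0.02 in the 4 comparisons, with at most 1 of 6 pairs over 0.1, and 1, 1, 2, and 0 libraries correlated best with their own number. With the replicate block 15 of the 36 genes were called higher in *ChAT-BKO* neurons at ZT20, where 51 of all 21738 genes were. In controls 2 (*Myh1* and *Actn3*) were called lower at ZT20 than at ZT8, where 24 of all genes were. The median for *ChAT-BKO* neurons, ZT20 against ZT8, was 1.33, *Acta1* at ZT8 was -0.63, and *Tpm2* was -0.0001. Of the other values, 513 kept their direction and side of the threshold. Depth limits *Myot*, *Mylk2*, *Neb*, *Trdn*, and *Smpx*, each with under 100 counts.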
